A study of Mus musculus with 16 samples.

Results

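The 10 genes described are core members of the Notch pathway and of the segmentation oscillator, out of 29453 genes in the deposited matrix, and all 10 were found there. They are defined by name, with no threshold on a value: the receptors *Notch1* and *Notch2*, the ligands *Dll1*, *Dll3* and *Jag1*, the glycosyltransferase *Lfng*, and the transcriptional repressors *Hes1*, *Hes5*, *Hes7* and *Hey1*. They were followed in mouse chimeras made by placing CD1 embryonic stem cells (ESCs) that lack *Stat3* and carry a ubiquitous H2B-tdTomato reporter into wild-type (WT) CD1 blastocysts. Chimeras were dissociated and sorted 7.5, 8.5 or 9.5 days after conception (E7.5, E8.5, E9.5), so that tdTomato-positive cells are called null and tdTomato-negative host cells WT. Each fraction was profiled by droplet 3′ single-cell RNA sequencing. There were 4 libraries of each genotype at the oldest stage and 2 of each at both younger stages. Null cells all descend from cultured ESCs and WT cells from the host embryo, so genotype and origin cannot be told apart. E7.5 and E8.5 embryos were pooled, whereas the study describes 2 embryos at E9.5, and so the 4 libraries of a genotype at that stage may share an embryo and p-values measure the spread between libraries only. The study sorted its E7.5 embryos into large and small ones, so the 2 E7.5 libraries of a genotype may also differ in embryo size.

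Notch receptors are cut when a Delta or Jagged ligand on a neighbouring cell engages them, and the freed intracellular domain joins the DNA-binding protein RBPJ to switch on *Hes* and *Hey* genes. LFNG modifies the receptor and changes which ligands it answers to. In the presomitic mesoderm, the unsegmented tissue at the tail, *Hes7* and *Lfng* are known for waves of transcription that set the pace of somite formation, with DLL1 as the activating ligand and DLL3 acting inside the cell. In the neural tube the same pathway is known for keeping progenitors from becoming neurons, with *Hes1* and *Hes5* as effectors.

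Doublets were removed, as were cells of the WT sort in which a tdTomato UMI (unique molecular identifier, 1 counted transcript) was seen, and 37841 cells remained, assigned by the authors to 87 cell types. A library held 360 to 4327 cells and 20682659 to 138613245 UMIs, and the shallowest cell held 10003 UMIs. *Stat3* stood at 6.14 to 9.31 counts per 1e+06 UMIs (CPM) in the 8 WT libraries and at 1.16 to 2.53 CPM in the 8 null libraries, without overlap, and tdTomato stood at 66.1 to 237 CPM in null libraries. The *Stat3* allele of the study's mice has a neomycin cassette in place of several exons, and whether the 3′ tags counted here fall within the deleted part was not tested. Cell barcodes present in more than 1 library numbered 488 and covered 2.58% of cells. The letters A to D only name the libraries of a group. The study sorted each embryo pool into a null and a WT sample, and which libraries share a pool is not known here. Levels are CPM over the summed cells of a type, given as mean ± SD over libraries with more than 15 cells of that type. In summed counts, more expressing cells and more transcripts per cell cannot be told apart. Reads at 3′ ends are not scaled by length, so a level is compared between tissues for 1 gene and never between genes.

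The upstream sequences of the 3 members with an RBPJ core motif near the start are shown, as the genes of the list whose windows hold these letters. RefSeq promoter windows (GRCm38.p6, 250 bases before to 50 after a start) were matched for 8 of the 10 members, with *Hes1* and *Hey1* unmatched. Each stretch is printed 5′ to 3′ on the gene's strand and ends at the base before the first annotated base of the gene. Capitals mark the RBPJ core TGGGAA or its complement TTCCCA, and the N-box CACNAG, a site bound by HES proteins, or its complement CTNGTG.
*Hes5* (chr4:154960673-154960922, plus strand): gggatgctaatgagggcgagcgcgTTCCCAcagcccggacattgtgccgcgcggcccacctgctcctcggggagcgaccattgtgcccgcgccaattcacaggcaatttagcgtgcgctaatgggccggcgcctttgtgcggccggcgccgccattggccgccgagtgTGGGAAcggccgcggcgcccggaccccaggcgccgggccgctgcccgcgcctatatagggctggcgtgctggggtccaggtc
*Lfng* (chr5:140607091-140607319, plus strand): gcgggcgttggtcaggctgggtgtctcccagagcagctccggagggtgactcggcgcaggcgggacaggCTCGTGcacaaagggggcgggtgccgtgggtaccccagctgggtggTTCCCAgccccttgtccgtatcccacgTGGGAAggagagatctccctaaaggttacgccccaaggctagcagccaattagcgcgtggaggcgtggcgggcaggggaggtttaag
*Hes7* (chr11:69120203-69120403, plus strand): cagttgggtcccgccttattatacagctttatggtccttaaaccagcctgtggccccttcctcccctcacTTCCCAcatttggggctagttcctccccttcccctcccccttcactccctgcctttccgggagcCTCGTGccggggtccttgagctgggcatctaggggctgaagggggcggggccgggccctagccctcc
*Hes5* carried 2 RBPJ cores, *Lfng* 2 and *Hes7* 1, while the windows of *Notch1*, *Notch2*, *Dll1*, *Dll3* and *Jag1* held none. The core occurred in 25.6% and the N-box in 42.5% of all 32851 promoter windows, so a match describes the letters only. The T-box half-site AGGTGT, present in 13.7% of windows, was in none of the members' windows.

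The clearest pattern among the 10 genes was where they were expressed. Among 40 WT cell types at E9.5, *Hes7*, *Dll1* and *Dll3* peaked in tail mesoderm, *Hes5*, *Notch1* and *Lfng* in hindbrain or midbrain, *Jag1* in pharyngeal endoderm, *Hey1* and *Notch2* in the hindbrain floor plate, and *Hes1* in limb ectoderm. Cell types were named from the expression of the same cells, so these levels are a description with no test. With each cell thinned to 10000 UMIs the leading type changed for 3 genes whose leading types overlapped: *Lfng* (Somitic mesoderm, 44.7 CPM against 40.04 in Dorsal hindbrain progenitors), *Hey1* (Placodal ectoderm, 77.9 against 67.97 CPM in Hindbrain floor plate) and *Dll3* (Dorsal midbrain neurons, 296 against 294 CPM in Somitic mesoderm).

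**Figure D1:**
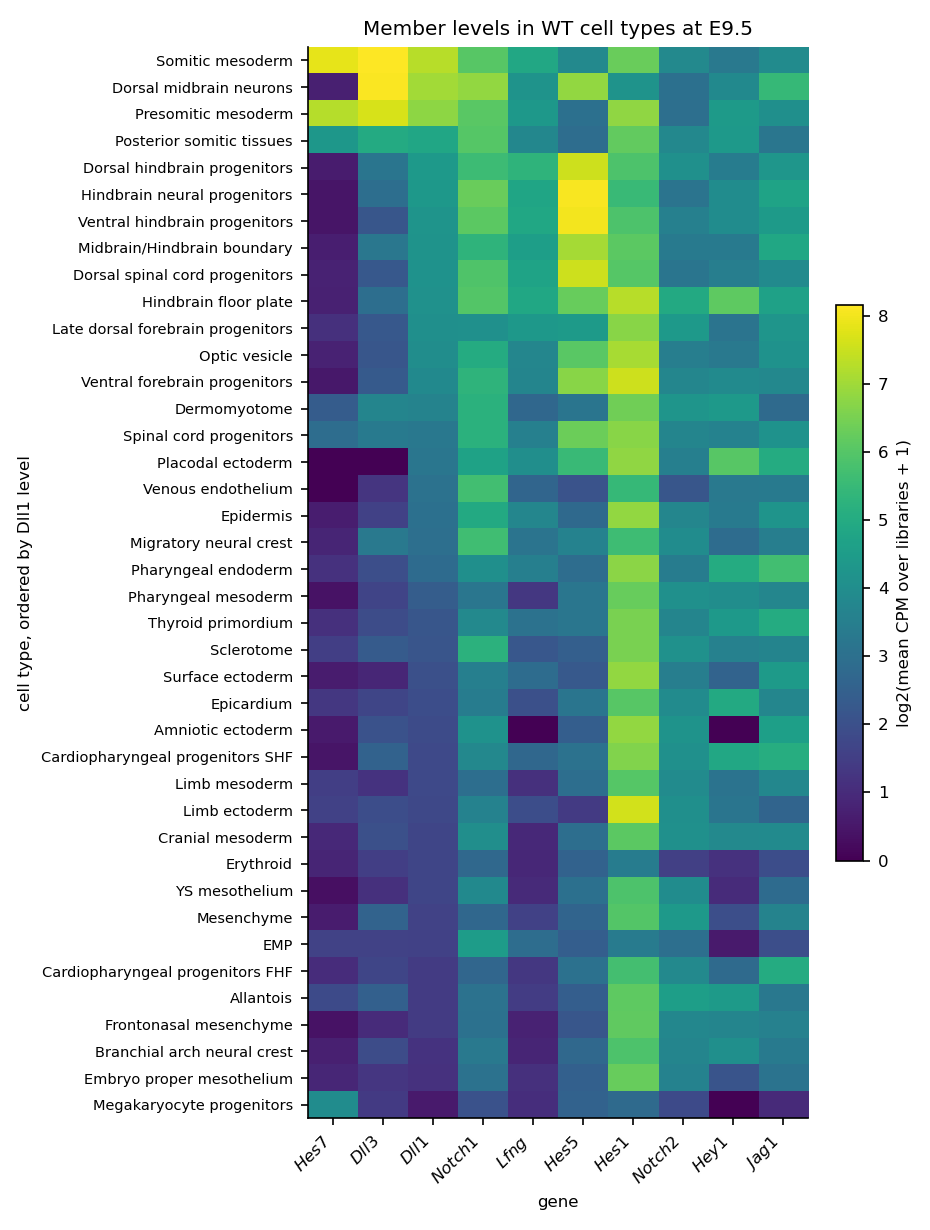
Level of each gene (columns) in 40 WT cell types at E9.5 (rows, ordered by *Dll1*), coloured by log2(mean CPM over libraries + 1). *Hes7*, *Dll1* and *Dll3* share the tail types Somitic mesoderm, Presomitic mesoderm and Posterior somitic tissues, and *Hes5* covers the neural progenitor types.

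Of the receptors, *Notch1* (chromosome 2, 26457903 to 26516663, minus strand, GRCm38) was highest in Dorsal midbrain neurons, with 118, 121, 118 and 95.9 CPM in WT libraries A to D (113 ± 11.6, n = 4). No library of the next type, Hindbrain neural progenitors (77.0 ± 12.3, n = 4), reached that range, but the libraries of 1 other type with a lower mean overlapped it. The types that followed overlapped one another: Ventral hindbrain progenitors at 67.6 ± 10.0 and Presomitic mesoderm at 66.2 ± 11.3 CPM (n = 2). *Notch1* was thus broad, with a median of 19.3 CPM over types and its lowest value, 3.19 CPM, in Megakaryocyte progenitors. *Notch2* (chromosome 3, 98013527 to 98150361, plus strand) was flatter still. It ranged from 1.94 CPM in Erythroid cells to 30.05 ± 6.64 CPM (n = 4) in the Hindbrain floor plate, the midline strip that secretes Sonic hedgehog, and the libraries of 5 other types overlapped that maximum.

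The Delta ligands followed 2 tissues at once. *Dll1* (chromosome 17, 15367354 to 15376872, minus strand) stood at 153 ± 86.2 CPM in Somitic mesoderm (n = 2), at 130 ± 11.5 CPM in Dorsal midbrain neurons (n = 4) and at 110 ± 39.3 CPM in Presomitic mesoderm (n = 2). These 3 overlapped, and the fourth type, Posterior somitic tissues, was far lower at 27.3 ± 23.7 CPM (n = 4). *Dll3* (chromosome 7, 28293553 to 28302238, minus strand) had the same 3 leading types, with 285 ± 113, 275 ± 32.2 and 201 ± 78.1 CPM, against a median over types of 3.36 CPM. Dorsal midbrain neurons had 4 libraries against 2 in each of the tail types, and the *Dll3* values there were 301, 263, 301 and 235 CPM. *Jag1* (chromosome 2, 137081456 to 137116644, minus strand) did not follow the Delta genes: it was highest in Pharyngeal endoderm at 50.04 ± 4.37 CPM (n = 3), with Dorsal midbrain neurons at 42.9 ± 16.4 CPM (n = 4) overlapping.

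*Lfng* (chromosome 5, 140607320 to 140615545, plus strand) peaked in Dorsal hindbrain progenitors at 40.3, 41.8, 42.6 and 31.3 CPM (39.0 ± 5.24, n = 4). That range was overlapped by 5 types. Second was Somitic mesoderm, with 57.7 CPM in WT A, above every hindbrain library, and 0 in WT D, and Presomitic mesoderm overlapped too. The others included Hindbrain floor plate at 28.2 ± 5.91 CPM and Ventral hindbrain progenitors at 28.1 ± 3.78 CPM. *Hes5* (chromosome 4, 154960923 to 154962371, plus strand) was the most neural of the effectors, with 271 ± 13.2 CPM in Hindbrain neural progenitors and 259 ± 48.5 CPM in Ventral hindbrain progenitors, which overlapped, then 187 ± 20.5 CPM in Dorsal spinal cord progenitors. Its median over types was 7.17 CPM, and 11 types exceeded 3 times that median, the most of any member. *Hes1* (chromosome 16, 30064384 to 30067796, plus strand) was the broadest effector, with a median of 72.2 CPM and no type above 3 times it. It reached 193 ± 48.4 CPM in Limb ectoderm (n = 2) and 187 ± 59.4 CPM in Ventral forebrain progenitors (n = 4), and was at 6.13 CPM in Megakaryocyte progenitors. *Hey1* (chromosome 3, 8663359 to 8667256, minus strand) led in Hindbrain floor plate at 68.7 ± 17.8 CPM (n = 4) and Placodal ectoderm at 65.1 ± 12.0 CPM (n = 2), which overlapped, and Pharyngeal endoderm came next at 31.5 ± 2.11 CPM (n = 3).

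*Hes7* (chromosome 11, 69120404 to 69124055, plus strand), a core gene of the segmentation oscillator, was the most restricted member, with a median over types of 0.758 CPM. In Somitic mesoderm it was at 334 CPM in WT A and 127 CPM in WT D, and in Presomitic mesoderm at 199 and 104 CPM in the same libraries. Only these 2 WT libraries had more than 15 cells of either type, and library A was the higher in both. Posterior somitic tissues were at 19.0 ± 24.7 CPM (n = 4), and Megakaryocyte progenitors came next at 14.5 ± 1.71 CPM (n = 2), a blood type outside the segmented mesoderm. By annotated position *Hes7* overlaps an opposite-strand gene, 9130213A22Rik, as do *Dll1* (A930024N18Rik), *Hes5* (Gm20421) and *Notch1* (0610009E02Rik and Gm13568). On the same strand *Notch2* overlaps Gm42819 and Gm42820 and *Notch1* overlaps Mir6996. Only positions were compared, and whether any counts of these 5 members belong to their neighbours was not tested.

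The tail labels were checked against markers. The E9.5 type named Somitic mesoderm held *Tbx6*, a T-box factor of presomitic cells, at 181 and 97.2 CPM and *Msgn1* at 9.12 and 17.8 CPM in WT A and D. Presomitic mesoderm of the same libraries held *Tbx6* at 114 and 96.3 CPM, and *Uncx*, a gene of formed somites, was at 1.52 CPM in Somitic mesoderm against 127 CPM in Posterior somitic tissues. *Meox1*, a homeobox gene of somites, was at 57.7 and 65.2 CPM in Somitic mesoderm, 35.3 and 33.2 CPM in Presomitic mesoderm and 441 to 526 CPM in Posterior somitic tissues. *Tcf15*, *Pax3* and *Foxc2*, also genes of somites, were at 109, 46.8 and 46.1 CPM in Somitic mesoderm, at 61.3, 44.5 and 34.3 CPM in Presomitic mesoderm and at 520, 257 and 82.1 CPM in Posterior somitic tissues. Somitic mesoderm thus held markers of both kinds, with mean *Tbx6* no lower than in Presomitic mesoderm. The mean of each of these 5 somite genes was below that in Posterior somitic tissues. For *Foxc2* the libraries overlapped, at 28.4 to 63.8 CPM in Somitic mesoderm and 58.5 to 119 CPM in Posterior somitic tissues. At E7.5 the type named Intermediate mesoderm carried presomitic markers: of 11 WT types it was highest for *Tbx6* (113 CPM, with 32.1 CPM in the next type), *Msgn1* (17.8 CPM) and *Rspo3* (536 CPM), and second for *T* (302 CPM, with 353 CPM in Caudal epiblast) and *Tcf15* (33.7 CPM, with 206 CPM in Paraxial mesoderm). Among 10 null types it was also highest for *Tbx6* (169 CPM), *Msgn1* (18.2 CPM) and *Rspo3* (613 CPM). In null it ranked 2 for *T* (194 CPM) and 4 for *Tcf15* (19.6 CPM). *Mesp1* was highest in this type in WT (313 CPM) and ranked 2 in null (217 CPM, with 605 CPM in Nascent mesoderm). Markers of intermediate mesoderm itself were not examined. It is called the *Tbx6*-high type of E7.5 here, and it held 134 WT and 250 null cells.

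That E7.5 type was also where 6 of the 10 members peaked in WT cells. *Dll1* stood at 126 and 127 CPM in its 2 WT libraries, *Dll3* at 139 and 106 CPM and *Notch1* at 105 and 69.7 CPM. *Hes7* was at 106 and 69.2 CPM, *Lfng* at 16.1 and 19.9 CPM and *Hes5* at 17.4 and 2.10 CPM. For *Dll1*, *Dll3*, *Notch1*, *Hes7* and *Lfng* no library of the next type reached these ranges, whereas *Hes5* overlapped. *Hes7* was next highest in Caudal epiblast, the posterior progenitor layer, at 62.0 ± 1.99 CPM (n = 2). At E8.5, among types with 2 WT libraries, *Hes7*, *Dll1* and *Dll3* were highest in Presomitic mesoderm, at 145 ± 33.9, 124 ± 30.02 and 175 ± 51.2 CPM in WT (n = 2). Somitic mesoderm at E8.5 had 1 library of 27 WT cells, with 167, 130 and 168 CPM of the same genes, and 1 of 31 null cells, with 201, 192 and 214 CPM. Null Presomitic mesoderm rested on 1 library of 40 cells, with 121, 107 and 172 CPM. These single libraries have no replicate and were not compared.

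**Figure D2:**
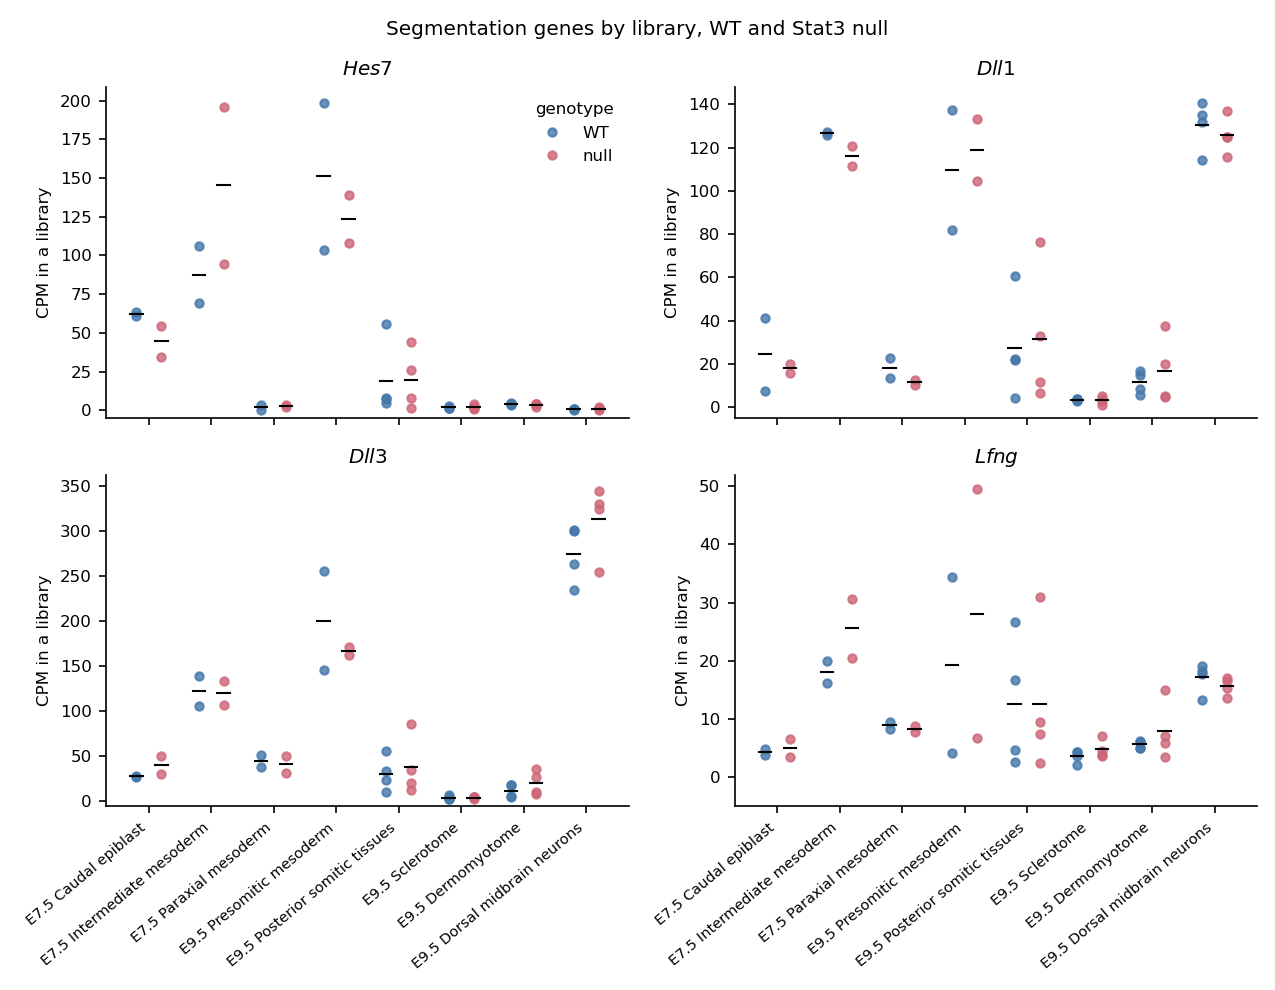
CPM of *Hes7*, *Dll1*, *Dll3* and *Lfng* (panels) in single libraries (points, with means as black bars), WT and *Stat3* null side by side, in E7.5 Caudal epiblast, the *Tbx6*-high type (labelled Intermediate mesoderm) and Paraxial mesoderm and in E9.5 tail, somite and midbrain types. The 2 libraries of a genotype in E9.5 Presomitic mesoderm lie far apart for *Lfng* (34.3 and 4.05 CPM in WT, 49.5 and 6.65 CPM in null) and closer for *Hes7* and *Dll1*.

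*Lfng* and *Hes7* varied widely between libraries of the tail. In E9.5 Presomitic mesoderm *Lfng* was at 34.3 CPM in WT A and 4.05 CPM in WT D, and at 49.5 CPM in null A and 6.65 CPM in null D. *Tbx6* in those 4 libraries was at 95.6 to 114 CPM, while in WT A and D *Foxc2* was at 43.6 and 25.1 CPM and *Uncx* at 0.928 and 6.47 CPM. In Somitic mesoderm both *Lfng* and *Tbx6* were higher in WT A than in WT D, with 181 and 97.2 CPM of *Tbx6*, and with 57.7 CPM of *Lfng* in WT A and 0 in WT D, where a count of 0 over 21 cells allows up to 3.55 CPM, counting error only. In Posterior somitic tissues *Hes7* ranged from 4.98 to 56.0 CPM over the 4 WT libraries and from 1.61 to 44.0 CPM over the 4 null ones. The libraries highest for *Hes7* there, WT D and null C, were also highest for *Tbx6* (11.01 and 21.7 CPM), and the part of cell makeup in the spread of *Lfng* and *Hes7* was not tested.

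Levels by cell type in null cells were set beside those in WT cells. Over the 37 types measured in both genotypes at E9.5, the type with the highest level was shared for 8 of the 10 genes, and for *Hes1* and *Hes5* the leading pair of types changed places. Pearson correlations of log2 levels between WT and null over those 37 types lay between 0.848 for *Notch2* and 0.966 for *Hes5*, as a description, since all types of a genotype come from the same 4 libraries. Somitic mesoderm, the leading WT type of *Hes7*, *Dll1* and *Dll3*, had 1 null library at E9.5 and is not among the 37.

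Within cell types, no member was called different between null and WT at any stage. A gene was called when edgeR's quasi-likelihood test gave an adjusted p under 0.05 (Benjamini-Hochberg over the genes of that cell type) with an absolute log2 fold change over 1. At E7.5, 0 of 48 tests of members in 7 types were called, where 0.186% of all tests were. At E8.5 the count was 0 of 107 in 20 types, with 0.0609% of all tests called, and at E9.5 it was 0 of 242 in 37 types, with 0.120% of all tests called. The types tested at E8.5 did not include Presomitic mesoderm, Somitic mesoderm or Posterior somitic tissues, which had 1 null library each with more than 15 cells. DESeq2 and limma-voom also called 0 at each stage. At an unadjusted p under 0.05, edgeR gave 4, 5 and 17 member tests at the 3 stages, which is 8.33%, 4.67% and 7.02% of them beside 4.06%, 4.32% and 6.26% of all genes. The median log2 fold change of the members was 0.04, -0.10 and 0.04, beside 0.001, 0.002 and -0.001 over all genes.

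**Figure D3:**
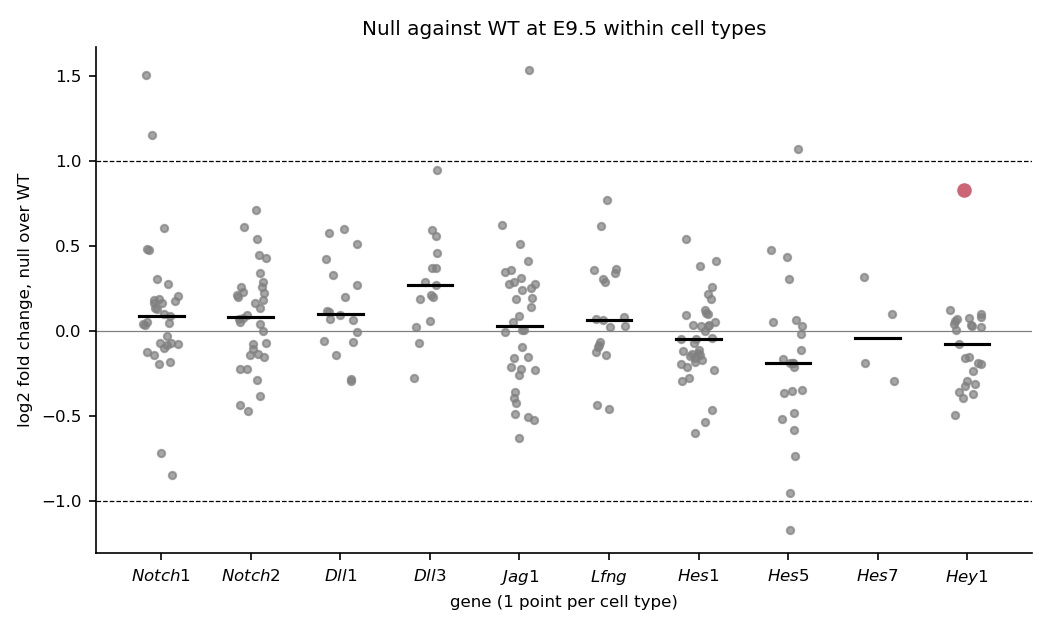
Log2 fold change of null over WT for each gene at E9.5, 1 point for each cell type tested by edgeR. Black bars mark medians and dashed lines a change of 1 in either direction, beyond which 5 points lie, and the 1 point with an adjusted p under 0.05 is *Hey1* in Pharyngeal endoderm.

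The closest to a call was *Hey1* in Pharyngeal endoderm at E9.5, the lining of the foregut pouches. WT libraries held 31.9, 29.2 and 33.4 CPM and null libraries 46.2, 55.1, 67.7 and 62.8 CPM. Every null library lay above every WT library. The log2 fold change was 0.83 (SE 0.16, 95% interval 0.50 to 1.16, adjusted p = 0.0129 by edgeR), short of the fold threshold. At an adjusted p under 0.05 alone this was 1 of 242 member tests, where 0.271% of all tests passed. Its adjusted p ran from 0.00011 to 0.0744 over the alternatives, and it rose above 0.05 when WT A, WT B, null C or null D was left out. *Epcam*, 1 of the 4 endoderm markers used for this type, was at similar levels in both genotypes there (681 to 834 CPM over the libraries). That is a single gene, and the part of cell makeup in the *Hey1* difference was not tested.

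Presomitic mesoderm at E9.5 and the *Tbx6*-high type of E7.5 had 2 libraries of each genotype, and the width of the intervals differed between genes. In E9.5 Presomitic mesoderm *Hes7* was at 151 ± 67.2 CPM in WT and 124 ± 21.9 CPM in null, a log2 fold change of -0.29 with a 95% interval of -0.96 to 0.38. *Dll1* gave 0.11 (-0.36 to 0.58), *Dll3* -0.27 (-0.76 to 0.22) and *Notch1* 0.17 (-0.28 to 0.62). *Lfng*, with the library spread given above, gave 0.62 with an interval of -4.85 to 6.09, which leaves its direction undetermined in this fit. The fit had no term for embryo pool, so any spread shared by null and WT libraries of a pool widens the interval too. Changes of more than 2-fold are outside the intervals of *Hes7*, *Dll1*, *Dll3* and *Notch1*, and none of these 4 genes was shown to be equal. In the *Tbx6*-high type of E7.5 the narrowest interval was that of *Dll1*, at -0.11 (-0.39 to 0.17), with 127 ± 1.00 CPM in WT and 116 ± 6.65 CPM in null. *Hes7* there was 87.6 ± 26.0 CPM in WT and 145 ± 71.6 CPM in null, with overlapping libraries and an interval of -1.40 to 2.72.

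Elsewhere the lowest unadjusted p of each gene marked candidates that did not survive adjustment by edgeR. At E7.5 it was *Notch1* in Caudal epiblast, with 31.2 and 30.9 CPM in WT against 14.9 and 17.97 CPM in null (log2 fold change -0.84, SE 0.24, adjusted p = 0.258). At E8.5 it was *Dll1* at the Midbrain/Hindbrain boundary, with 17.2 ± 4.40 CPM in WT and 9.21 ± 3.55 CPM in null (-1.12, SE 0.35, adjusted p = 0.877). Neither passed the adjustment. At E9.5 *Hes1* in Cardiopharyngeal progenitors SHF, precursors of the second heart field, gave -0.60 (SE 0.18, adjusted p = 0.451). *Notch1* in Limb ectoderm gave 1.51 (SE 0.43, adjusted p = 0.550) from 11.2 ± 4.54 CPM in WT and 30.1 ± 0.831 CPM in null. *Hes5* in Placodal ectoderm gave -1.17 (SE 0.38, adjusted p = 0.506) from 45.3 ± 20.1 and 17.0 ± 12.6 CPM. All 3 failed the correction over the genes of their type.

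Across types, *Dll3* and *Hes5* leaned in opposite directions at E9.5. The fold change of *Dll3* was above 0 in 13 of 15 types, with a median of 0.27, and that of *Hes5* in 7 of 23 types, with a median of -0.18. The other 8 genes had medians between -0.07 and 0.10. These types share their libraries, so their number is not a number of replicates.

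Averaging over cell types gave 1 value per library and asked the same question with 16 libraries. Each library's CPM was averaged with equal weight over the types present in all libraries of its stage, which were 7 at E7.5, 20 at E8.5 and 20 at E9.5, and tested with limma on log2(mean CPM + 1). No member reached an adjusted p under 0.05 over the 3 stages together, where 3.67% of 11899 genes did. The same held at E7.5 (0.328% of genes), E8.5 (0.151%) and E9.5 (1.38%). At an unadjusted p under 0.05 there was 0 of 10 in the fit over all stages, beside 19% of genes.

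**Figure D4:**
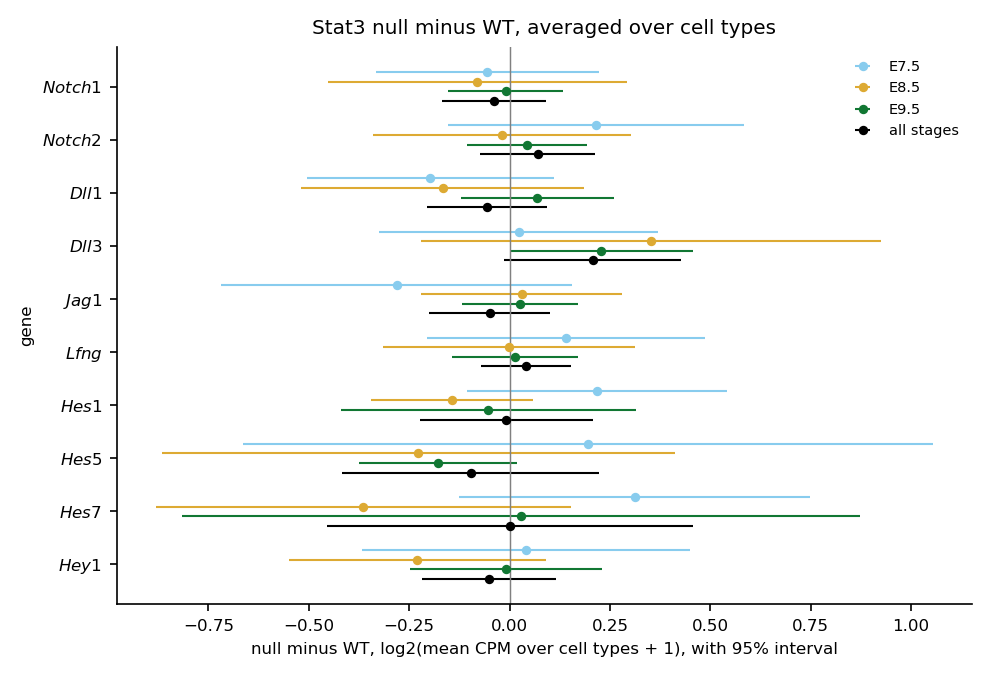
Null minus WT on the log2(mean CPM over cell types + 1) scale for each gene, per stage and over all stages, with 95% intervals from limma. The all-stages intervals of all 10 genes include 0, *Dll3* lies highest at 0.21, and *Hes7* has the widest interval.

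In the fit over all stages the largest averaged difference was that of *Dll3*. For *Dll3* and *Dll1* the shared types of E8.5 and E9.5 did not include Presomitic or Somitic mesoderm. Those of E9.5 did include Dorsal midbrain neurons, where *Dll3* was at 275 CPM in WT and 314 CPM in null. At E9.5 the averaged *Dll3* of WT libraries lay between 16.5 and 21.6 CPM (19.3 ± 2.21, n = 4) and that of null libraries between 19.6 and 26.9 CPM (22.8 ± 3.30, n = 4), which overlap. Over all stages the difference was 0.21 on the log2 scale (SE 0.10, 95% interval -0.01 to 0.43, limma adjusted p = 0.292). An exact two-sided permutation test of the labels within stages gave p = 0.187 over 2520 arrangements, and p = 0.143 over 70 at E9.5 alone, before any adjustment over the 10 genes. *Hes5* gave -0.10 (-0.42 to 0.22) over all stages and -0.18 (-0.37 to 0.02) at E9.5, from 66.8 ± 6.30 CPM in WT and 59.1 ± 7.32 CPM in null.

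For the remaining genes the intervals apply to this equal-weight average only, and with all cells of a library summed *Jag1* was at 0.17, outside the interval given here for it. *Notch1* was -0.04 (-0.17 to 0.09), from 38.4 ± 4.00 CPM in WT and 38.0 ± 1.53 CPM in null at E9.5. *Lfng* was 0.04 (-0.07 to 0.15), *Notch2* 0.07 (-0.07 to 0.21), *Dll1* -0.06 (-0.21 to 0.09), *Jag1* -0.05 (-0.20 to 0.10), *Hey1* -0.05 (-0.22 to 0.12) and *Hes1* -0.01 (-0.22 to 0.21). *Hes7*, for which Presomitic mesoderm was not among the shared types at E8.5 or E9.5, stayed loosely bounded at 0.00 (-0.46 to 0.46). The limma interaction terms, which ask whether the genotype effect differed between stages, passed for 0 of 10 members in either step, beside 0.00840% and 0.0168% of genes at an adjusted p under 0.05. At an unadjusted p under 0.05 there were 0 members in either step, beside 4.56% and 2.31% of genes. The widest of these intervals, for *Hes7* between E7.5 and E8.5, ran from -2.03 to 0.68.

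The rest of the pathway gave no call with all libraries. Of 40 other Notch pathway genes, 34, 35 and 37 were tested at the 3 stages, and 0 of 188, 0 of 500 and 0 of 999 tests were called by edgeR, DESeq2 or limma-voom. At E8.5 this count changed when null A was left out, which left null B as the only null library. The calls then made rested on null B alone and were all lower in null. Most were of *Dlk1*, a non-canonical ligand, with log2 fold changes of -7.37 to -1.57. The study left imprinted genes, a class that includes *Dlk1*, out of its tests, and they were kept here. Averaged over the 20 shared types, *Dlk1* was at 182 and 145 CPM in WT and at 184 and 32.7 CPM in null A and B, so the null libraries stood far apart. Leaving out any other library gave 0 or 1 call. The list's median log2 fold changes were -0.03, 0.01 and 0.004, beside 0.001, 0.002 and -0.001 over all genes. Under the fold threshold but at an adjusted p under 0.05 by edgeR, *Dlk1* was higher in null Embryo proper mesothelium at E9.5 (371 ± 36.7 CPM in WT, 520 ± 43.9 CPM in null, log2 fold change 0.50, adjusted p = 0.000844). *Mib1*, the ligase that lets ligands be taken up, was higher in Frontonasal mesenchyme (34.6 ± 3.29 and 51.3 ± 6.31 CPM, 0.56, adjusted p = 0.0387). *Dlk1* passed with each of 8 libraries left out in turn and *Mib1* with none of them.

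Of 41 other segmentation genes, 37, 35 and 39 were tested, and edgeR called 1 of 165, 4 of 320 and 2 of 634 tests, where 0.186%, 0.0609% and 0.120% of all tests were called. The median log2 fold change was -0.01, -0.08 and -0.05, beside 0.001, 0.002 and -0.001 over all genes. At an unadjusted p under 0.05, edgeR gave 10.3%, 15.3% and 11.5% of these tests, beside 4.06%, 4.32% and 6.26% of all tests. Tests of a gene in several types share libraries, so these shares do not count replicates. With 1 library left out the count reached 17 at E7.5 (without WT A, led by *Cdx1* in 4 types), 20 at E8.5 (without null A, led by *Meox1* in 4 types) and 7 at E9.5 (without WT D), in fits where 0.419%, 0.434% and 0.131% of all tests were called. At E7.5 *Cdx4*, a homeobox gene of the posterior body, rose in null Paraxial mesoderm from 2.78 ± 1.79 to 19.0 ± 3.32 CPM (2.48, SE 0.38, adjusted p = 0.00709). At E8.5 *Meox1* fell in Cranial mesoderm from 62.5 ± 1.72 to 15.98 ± 0.508 CPM (-2.01, SE 0.26, adjusted p = 1.30e-05). Both calls held with each library left out in turn and under DESeq2, and the adjusted p of *Cdx4* by limma-voom was 0.0530.

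*Meox1* fell in 2 further types at E8.5, the Hindbrain floor plate from 33.3 ± 8.88 to 3.71 ± 3.17 CPM (-2.74, edgeR adjusted p = 0.0147) and Limb mesoderm from 24.2 ± 7.37 to 6.70 ± 4.56 CPM (-1.50, edgeR adjusted p = 0.0375). The first was lost without WT B and the second without WT A, and DESeq2 called neither. Under the fold threshold but at an adjusted p under 0.05 by edgeR, *Meox1* was also lower in null Sclerotome at E8.5. Its log2 fold change there was -0.73 to -0.54 over the alternatives (limma-voom adjusted p = 0.0150), and DESeq2 did not pass it. For scale, WT *Meox1* at E8.5 was at 517 CPM in Posterior somitic tissues and 501 CPM in Dermomyotome. *Pax1*, a sclerotome and pharyngeal pouch gene, rose in null Pharyngeal endoderm from 12.7 ± 1.35 to 38.5 ± 3.62 CPM (1.63, edgeR adjusted p = 0.000171), with an adjusted p of 0.289 by DESeq2. At E9.5 *Efnb2*, an ephrin of the somite border and of arteries, fell in Pharyngeal mesoderm from 44.7 ± 8.40 to 17.9 ± 1.19 CPM (-1.31, edgeR adjusted p = 0.00819). Finally *Fgf8*, a growth factor of the tail bud, fell in Posterior somitic tissues from 20.5 ± 7.47 to 9.65 ± 0.688 CPM (-1.13, edgeR adjusted p = 0.0346). In Posterior somitic tissues the 8 libraries also varied in *Hes7* and *Tbx6* as given above. The *Efnb2* call was lost without WT A, null A or null B, and the *Fgf8* call in 6 of 8 such fits, and DESeq2 called neither. Of these 7 calls only that of *Fgf8* was in a type of the tail. Between genotypes, Presomitic mesoderm, Somitic mesoderm and Posterior somitic tissues could not be tested at E8.5, nor Somitic mesoderm at E9.5. Each had 1 null library with more than 15 cells, so the few tail calls are not a result about the tail.

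The members changed between stages far more than between genotypes. From E8.5 to E9.5, 22 of 195 member tests in 31 WT types were called by edgeR, 21 higher and 1 lower at E9.5, where 3.19% of all tests were called, 2.17% higher and 1.02% lower. In null cells 14 of 131 tests in 19 types were called, 13 higher and 1 lower, where 2.88% of all tests were called, 1.99% higher and 0.895% lower. The median log2 change of the members was 0.24 in WT and 0.33 in null, beside 0.01 and 0.01 over all genes. Of 121 pairs of gene and type tested in both genotypes, 104 had the same sign and 5 (4.13%) were called in both, where 72.4% of 159868 pairs over all genes had the same sign and 1.57% were called in both. Embryos and libraries differ between stages, so stage and library batch cannot be told apart.

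**Figure D5:**
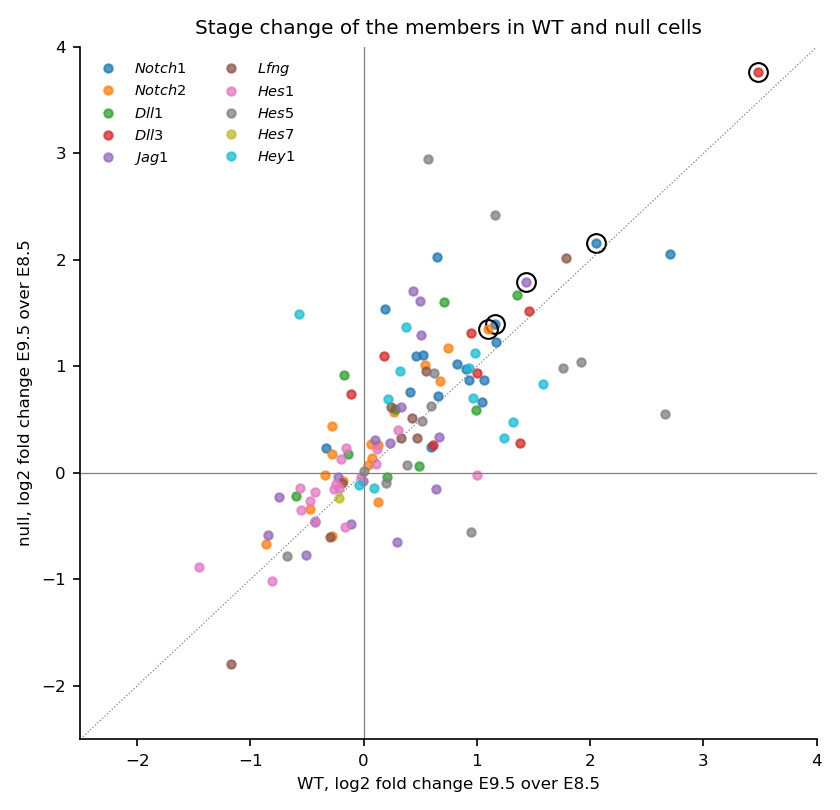
Log2 change from E8.5 to E9.5 in WT (x axis) and null cells (y axis), 1 point for each of the 121 pairs of gene and cell type tested in both, with a dotted line of equal change. Circles mark the 5 pairs called in both genotypes, which lie in the upper right, led by *Dll3* and *Notch1* in Migratory neural crest. The E8.5 levels of *Dll3* in that type came from 4 UMIs in WT and 3 UMIs in null.

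*Notch1* was the member that moved most evenly. In Migratory neural crest it rose from 10.6 ± 0.1504 to 49.0 ± 16.5 CPM in WT (2.05, SE 0.40, edgeR adjusted p = 0.0126) and from 9.02 ± 1.07 to 46.0 ± 6.47 CPM in null (2.16, SE 0.21, adjusted p = 1.85e-05). In Ventral hindbrain progenitors it rose from 25.4 ± 9.19 to 67.6 ± 10.0 CPM in WT (1.16, SE 0.18) and from 20.8 ± 5.58 to 68.5 ± 5.25 CPM in null (1.40, SE 0.15). Libraries of the 2 stages did not overlap in any of these. Over types, its fitted change was positive in 22 of 26 in WT and 17 of 17 in null, and in 16 of the 17 tested in both genotypes. *Notch1* was also called in WT Dorsal hindbrain progenitors (15.1 ± 3.92 to 47.8 ± 8.66 CPM, 1.45), Placodal ectoderm, Branchial arch neural crest and Erythroid cells, and in null Surface ectoderm and Amniotic ectoderm. *Notch2* was called in Limb mesoderm in both genotypes, from 6.09 ± 0.638 to 14.4 ± 0.874 CPM in WT and from 3.25 ± 4.60 to 14.8 ± 1.36 CPM in null.

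Among the ligands, *Dll3* in Migratory neural crest had the largest change called in both genotypes. It rose from 0.682 ± 0.117 to 8.75 ± 3.39 CPM in WT (3.48, SE 0.57, edgeR adjusted p = 0.000488) and from 0.798 ± 0.668 to 10.2 ± 5.13 CPM in null (3.77, SE 0.72, adjusted p = 0.00317). The E8.5 levels of *Dll3* there came from 4 UMIs in WT and 3 UMIs in null, so the sizes of both changes rest on few counts. *Jag1* in Mesenchyme rose from 3.83 ± 0.789 to 11.5 ± 4.80 CPM in WT (1.44) and from 3.58 ± 2.52 to 16.6 ± 4.10 CPM in null (1.79). *Jag1* was further called in WT Placodal ectoderm and null Amniotic ectoderm, and *Dll1* in WT Erythroid cells alone. *Lfng* was called in no type in either genotype (0 of 15 and 0 of 10 tests by edgeR).

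In the tail itself no member was called between stages. WT Presomitic mesoderm, with 2 libraries at each stage, gave a change of -0.11 for *Hes7* (95% interval -0.97 to 0.75), -0.34 for *Dll1* (-0.86 to 0.18) and 0.04 for *Dll3* (-0.79 to 0.87). *Notch1* there went from 41.7 ± 3.37 to 66.2 ± 11.3 CPM (0.49, interval 0.02 to 0.97, edgeR adjusted p = 0.297). For *Lfng* the interval ran from -3.22 to 3.04. Null Presomitic mesoderm had too few cells at E8.5 for the same comparison.

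*Hey1* and *Hes5* carried most of the effector calls. In WT Placodal ectoderm *Hey1* rose from 5.85 ± 4.84 to 65.1 ± 12.0 CPM (3.27, SE 0.38, edgeR adjusted p = 1.41e-06) and *Hes5* from 10.1 ± 1.15 to 45.3 ± 20.1 CPM (2.04, SE 0.38, adjusted p = 0.000718). Null *Hey1* rose in Hindbrain floor plate from 28.0 ± 4.28 to 71.2 ± 4.09 CPM (1.13, SE 0.16, adjusted p = 0.000238) and in Pharyngeal endoderm from 16.9 ± 8.46 to 58.0 ± 9.40 CPM (1.37, SE 0.24, adjusted p = 0.000617). Placodal ectoderm and Branchial arch neural crest, where *Hey1* and *Hes5* were called in WT, had no 2 null libraries at E8.5 and were not tested in null cells. A call in 1 genotype and none in the other was not tested as a difference. *Hes1* went the other way in 2 types: it fell in WT Allantois from 186 ± 6.09 to 70.1 ± 22.7 CPM (-1.45, SE 0.21, edgeR adjusted p = 0.0042) and in null Thyroid primordium from 145 ± 37.9 to 73.0 ± 5.90 CPM (-1.02, SE 0.23, adjusted p = 0.026). It rose in WT Amniotic ectoderm from 54.6 ± 2.81 to 113 ± 7.13 CPM (1.00). Over all types *Hes1* was lower at E9.5 in 26 of 31 WT types by the TMM-scaled fit and in 21 of 31 by plain CPM, whereas in null its sign depended on scaling, lower in 13 of 19 types by the fit and in 6 of 19 by plain CPM. Plain CPM ratios of the members exceeded the fitted changes by a median of 0.16 in WT and 0.19 in null, and none of the 22 and 14 called changes had another sign on that scale.

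The WT Erythroid calls concern very low levels. *Notch1* went from 1.32 ± 0.378 to 5.73 ± 5.03 CPM, *Hes5* from 1.56 ± 1.16 to 4.98 ± 2.61 CPM and *Dll1* from 0.381 ± 0.240 to 2.25 ± 1.03 CPM. Of neural genes in the same cells, *Sox2* went from 5.38 to 8.71 CPM and *Pax6* from 2.29 to 3.99 CPM, and their part in the result was not tested. *Hbb-bh1*, an embryonic globin, was at 20789 and 23014 CPM. Null Erythroid cells at E9.5 numbered 19 in all and were not tested.

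Of the 22 WT calls, 6 held with every library left out in turn, and so did 5 of the 14 null calls. In all such fits each of these 22 and 14 changes kept its sign. Those that held were *Notch1* in WT Dorsal hindbrain progenitors and Erythroid cells, *Dll3* in WT Migratory neural crest, *Hes1* in WT Allantois, *Hey1* and *Hes5* in WT Placodal ectoderm, and in null cells *Notch1* in Migratory neural crest and Ventral hindbrain progenitors, *Hey1* in Hindbrain floor plate and Pharyngeal endoderm, and *Jag1* in Amniotic ectoderm. DESeq2 called 14 of the 22 and 8 of the 14.

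From E7.5 to E8.5 only 2 types could be compared. In WT Lateral plate mesoderm *Notch1* fell from 10.4 ± 0.915 to 3.06 ± 2.19 CPM (-1.69) and *Dll3* from 6.62 ± 0.248 to 2.04 ± 0.743 CPM (-1.58), while *Jag1* rose from 4.64 ± 1.67 to 11.7 ± 3.01 CPM (1.56). These were 3 of 10 member tests, where edgeR called 8.55% of all tests. In null cells 0 of 9 were called, with 6.90% of all tests called, and 0 by DESeq2. At an unadjusted p under 0.05 there were 3 (33.3%), beside 26.4% of all tests. None of the 3 WT calls was made by DESeq2 or held with every library left out in turn. Other Notch pathway genes were called in 61 of 821 tests in WT from E8.5 to E9.5 (56 higher) and in 29 of 536 in null (27 higher), and other segmentation genes in 96 of 569 (56 higher) and 60 of 337 (36 higher), where for this step 3.19% of all tests in WT and 2.88% in null were called.

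Genes whose pattern over the 40 WT types at E9.5 was most like that of a member were sought among 12614 genes by Pearson's r of log2(mean CPM + 1). The types share 4 libraries, so r is a description. *Hes7* was most like *Tbx6* (0.926), and then *Gzmk* (0.898) and *T* (0.889), the brachyury gene of the primitive streak and tail. *Hes5* was most like *Sox3* (0.938), a SOXB1 factor of neural progenitors, and then *Ptprn2* and *Pou3f2*. *Lfng* was most like *Nrarp* (0.886), a feedback inhibitor of Notch, and then *Dpysl5* and *Notch4*, and *Notch1* was most like *Dll1* (0.846), *Nrarp* and *Lfng*. 

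*Dll1* was closest to *Pcdh8* (0.849), a protocadherin of the paraxial mesoderm, and *Dll3* to *Spock2* (0.876). *Hey1* was closest to *Amt* (0.775) and *Notch3* (0.775), *Jag1* to *Strbp* (0.813), *Notch2* to *Arhgap5* (0.825) and *Hes1* to *Tcf7l1* (0.881). Of the 30 closest genes, 10 were also among the closest by Spearman's rho and 12 when null libraries were used in place of WT.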

How the data were processed

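Reads were aligned and counted by the authors with CellRanger (mm10, GRCm38.p5 gene models plus the tdTomato sequence). The authors kept cells within limits on UMIs, genes, mitochondrial and ribosomal RNA, called doublets, transferred cell types from a gastrulation atlas and deposited raw UMI counts per gene and cell. Of 192657 barcodes, 41832 were in the matrix. Left out here were 3395 doublet calls and 596 tdTomato-containing cells of the WT sort. The stage and sort gate of each library came from the deposited annotation of the cells. The groups and their numbers of libraries matched the sample labels. Library names carry no embryo pool, so the study's pool block could not be fitted and the libraries of a group were treated as separate samples. All 16 pairs of libraries within a group differed by more than sampling noise (chi-square per degree of freedom 17.1 to 67.3). 

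UMIs were summed per library and cell type (more than 15 cells, at least 2 libraries a group) and tested with edgeR 4.0.16 (filterByExpr, TMM, robust quasi-likelihood fit, R 4.3.3), leaving out 8176 genes (predicted, mitochondrial, ribosomal and haemoglobin genes, the reporter and genes tied to sex). Imprinted genes, which the study also left out, were kept. Averages over cell types were tested with limma 3.58.1 (trend, robust) for genes with a mean of at least 1 CPM, with a pseudocount of 1 CPM. DESeq2 1.42.0 and limma-voom were alternatives. Scripts were tested on simulated data. The 10 genes and both gene lists were chosen with earlier results of these data known. Named from the lists were all called genes, and per member the type with the lowest p and the 3 genes of most alike pattern (over 5 CPM in at least 1 type). *Dlk1* at E8.5 and *Cdx1* were named after their values were seen. Intervals are 95% and cover the libraries given.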

Additional observations from a re-analysis of the deposited data

Results flagged for a closer look

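Among 64 groups of 4 libraries examined, 4 held a library standing apart from the other 3 by Dixon's 95% criterion on the gap over the range, where chance alone gives about 1 in 20 groups, and no cause was tested. *Jag1* averaged over cell types was 14.7 CPM in E9.5 WT D, against 16.7 to 17.1 CPM in the other 3 WT libraries. *Notch2* averaged over cell types was 15.2 CPM in E9.5 WT C, against 13.3 to 13.5 CPM. *Notch1* in Dorsal midbrain neurons was 95.9 CPM in E9.5 WT D, against 118 to 121 CPM. *Notch1* in Migratory neural crest was 24.7 CPM in the same library, against 54.7 to 61.6 CPM. Library D was the low one in 3 of the 4. WT D also had the most WT-sort cells left out for a tdTomato UMI, 366 against 39 to 106 in E9.5 WT A to C. Whether this bears on its levels was not tested.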

How the results depend on the processing

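No paired analysis was possible because the library names carry no embryo pool. Counts of called tests moved by more than 1.5 times as follows, and the cause was not tested. Without the filter on low counts, members gave 1 call at E8.5 (*Hes5*, Allantois) and 1 at E9.5 (*Hes5*, Placodal ectoderm) for null against WT, other Notch genes 2 at E9.5, and other segmentation genes 3, 16 and 12 at the 3 stages. Without that filter stage changes gave 7 of 20 (WT, E8.5 against E7.5), 34 of 310 (WT, E9.5 against E8.5), 2 of 20 and 22 of 190 (null) member tests, with 7.11%, 2.86%, 6.06% and 2.84% of all tests called, so more tests stand behind these counts. Segmentation stage calls then reached 151 in WT and 100 in null at E9.5 against E8.5. With no fold threshold, members gave 1 call at E9.5 and other Notch genes 2, and 36 WT and 23 null stage calls of members passed, with 9.64% and 7.88% of all tests. Without null cells lacking a tdTomato UMI, 2 and 1 segmentation calls were left at E8.5 and E9.5, and with WT cells holding one kept, 1 at E9.5. DESeq2 gave 1 and 0 segmentation calls at E8.5 and E9.5, 0 WT stage calls at E8.5 against E7.5 and 8 null ones at E9.5 against E8.5, and limma-voom 0 and 1 segmentation calls at E7.5 and E9.5. With more than 50 cells a library, 13 WT and 2 null stage calls of members, 37 and 9 of other Notch genes and 50 and 8 of segmentation genes were left, and 0 segmentation calls between genotypes at E8.5 and E9.5, with fewer types tested.

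Leaving out 1 library gave 0 to 2 member calls at E7.5 (2 without WT A, in the *Tbx6*-high type, *Hes5* at 2.53 and *Hes7* at 1.01), 0 at E8.5 and 0 to 1 at E9.5 (*Lfng* in Presomitic mesoderm at 2.75 without WT A, *Hes5* in Placodal ectoderm at -2.47 without null A). Other Notch genes gave 0 to 1 at E7.5 and E9.5 and 0 to 15 at E8.5 (15 without null A), and segmentation genes 2 to 17, 5 to 20 and 0 to 7 at the 3 stages (17 without E7.5 WT A, 20 without E8.5 null A, 7 without E9.5 WT D), and in WT stage tests at E9.5 against E8.5 they gave 32 to 67 and 58 to 127 (32 without E8.5 WT B, 58 of 376 without E9.5 WT C, where 20 of 31 types were left). The averaged E8.5 fit gave 0 to 1 (*Hes5* at -0.58 without null A). Stage calls ran from 14 (without E8.5 WT B) to 31 in WT and from 8 (without E8.5 null B, or E9.5 null C, where 13 of 19 types were left) to 17 in null for E9.5 against E8.5, and from 1 (without E7.5 WT B) to 3 and from 0 to 2 (without E8.5 null B) for E8.5 against E7.5. An arm left with 1 library was assumed to vary like the other.

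Signs turned for some differences that were not called. With all cells summed, the averaged difference became 0.071 for *Notch1*, 0.083 for *Dll1*, 0.17 for *Jag1*, 0.061 for *Hes1* and 0.018 for *Hey1*. That of *Hes7* became -0.067 as a mean of log2 values and -0.052 with a pseudocount of 0.1. *Hes7* in Spinal cord progenitors at E8.5 became 0.065 with limma-voom. With 1 library left out, ranges crossing 0 were -0.94 to 1.13 there, -0.67 to 0.21 for *Hes7* in Presomitic mesoderm at E9.5, -0.78 to 0.18 for *Hey1* in Ectoderm at E7.5, and for the averaged differences -0.078 to 0.012 (*Jag1*), -0.067 to 0.061 (*Hes1*) and -0.10 to 0.13 (*Hes7*). The averaged fit with more than 50 cells a library could not be run, since no type was shared at E7.5. At E9.5 Presomitic and Somitic mesoderm rest on 1 or 2 libraries of 19 to 39 cells each.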
